A study of Mus with 4 samples.

Results

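Aminoacyl-tRNA synthetases are the enzymes that join each amino acid to its transfer RNA. The genes described here are the cytosolic and mitochondrial members of this enzyme family, chosen by name: all probe sets whose only annotated gene symbol is one of 37 listed synthetase genes. A value was found for 36 of the 37, out of 18193 genes with a single symbol on the array, and these 36 genes are read by 73 probe sets. Of the 36 genes, 20 encode cytosolic enzymes and 16 encode mitochondrial enzymes. The remaining gene is not analysed here.

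The cells are PPS-ICBR, a prostate cancer line from the mouse (strain C57Bl6), and their RNA was measured on 4 Affymetrix arrays. Cells seeded at 60% confluency were kept overnight either with 5 µM vorinostat dissolved in DMSO (n = 2 arrays) or with 5 µL of DMSO alone in 10 mL of medium (n = 2 arrays). Vorinostat inhibits histone deacetylases, and DMSO is its solvent, so both groups received DMSO. No label states that both arrays of a group stem from different cultures; the p-values therefore reflect only how far these samples scatter, and that scatter may be technical.

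Each synthetase recognises its own amino acid and the transfer RNAs that belong to it, and the charged transfer RNA then delivers the amino acid to the ribosome. Mitochondria translate their own messages with a separate set of synthetases, most of which are encoded by nuclear genes other than those for the cytosolic enzymes and are imported as proteins. Many cytosolic synthetase genes are known targets of the transcription factor ATF4, which acts in the response to amino acid shortage and to stress of the endoplasmic reticulum.

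Values are the deposited log2 expression values, and a change is vorinostat minus DMSO on the log2 scale with its standard error (SE). A gene is called lower or higher when its adjusted p from limma is under 0.05, and a gene with several probe sets is read from its brightest one. The array medians lay between 4.19 and 4.28, but the arrays were scaled to equal distributions, so this says little about quality. The difference between 3' and 5' probe sets of Actb lay between -0.0043 and 0.0444. Array correlations were at least 0.997 within a group and at most 0.974 between groups. On the mean of 8 prostate epithelial markers the DMSO arrays lay at 7.71 to 7.75 and the vorinostat arrays at 7.61 to 7.73. Of the 8, 0 lay near background on all arrays, Krt8 fell by 1.05 and Hoxb13 rose by 0.54. Of 9 immune markers, 7 lay near background on all arrays, and the means of the 9 were 3.13 to 3.22 with DMSO and 3.29 to 3.31 with vorinostat. The 2 called higher were Cd3e and S100a8, and S100a8 itself lay near background on all arrays. Of 6 endothelial markers, 4 lay near background and 0 were called by limma (2 were lower at an unadjusted p under 0.05), with means of 3.26 to 3.33 and 3.16 to 3.28. The 6 fibroblast markers had means of 7.997 to 8.08 with DMSO and 8.11 to 8.38 with vorinostat. Pdgfra and Dcn rose by 1.54 and 1.26, Col3a1 fell by 0.89, and 1 marker lay near background. The part of these markers in the results was not tested. In RNA from whole cultures, fewer cells of a type and less RNA per cell cannot be told apart.

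Synthetase transcripts that changed were lower with vorinostat in both compartments. Of the 36 genes, 18 were lower, 0 were higher and 18 did not pass the test, and the median change was -0.37 against 0.03 for all genes. Over all genes 18.9% were lower and 20.9% were higher. All 36 members were brighter than the median probe set, and among the 11618 genes above that level 28.2% were lower and 28.7% were higher, with a median change of 0.03. At an unadjusted p under 0.05 from limma, 21 members were lower and 2, Rars and Lars2, were higher. The 2 DMSO arrays and the 2 vorinostat arrays did not overlap in 32 of the 36 members, against 68.9% of all genes. At least 2-fold lower were 4 members, Yars2, Ears2, Cars2 and Vars, against 6.17% of all genes.

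These directions are relative to the other transcripts on the array, because the arrays were scaled to equal distributions. When the arrays were instead scaled to 7 reference genes, whose mean change was -0.37, the median of all genes moved to 0.40 and the cytosolic median turned to 0.0597, with 3 members lower and 5 higher. The mitochondrial median was then -0.0943, with 5 members lower and 5 higher. The share of all genes called under this scaling is not given here. Against the median of all genes the shift was -0.34 for the cytosolic and -0.49 for the mitochondrial members. Reference-gene scaling moves all genes of an array by the same amount, so it cannot alter this distance. Of the reference genes, 2, Gusb and Polr2a, were themselves called lower, and scaling to the other 5 gave a cytosolic median of -0.23.

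**Figure D1:**
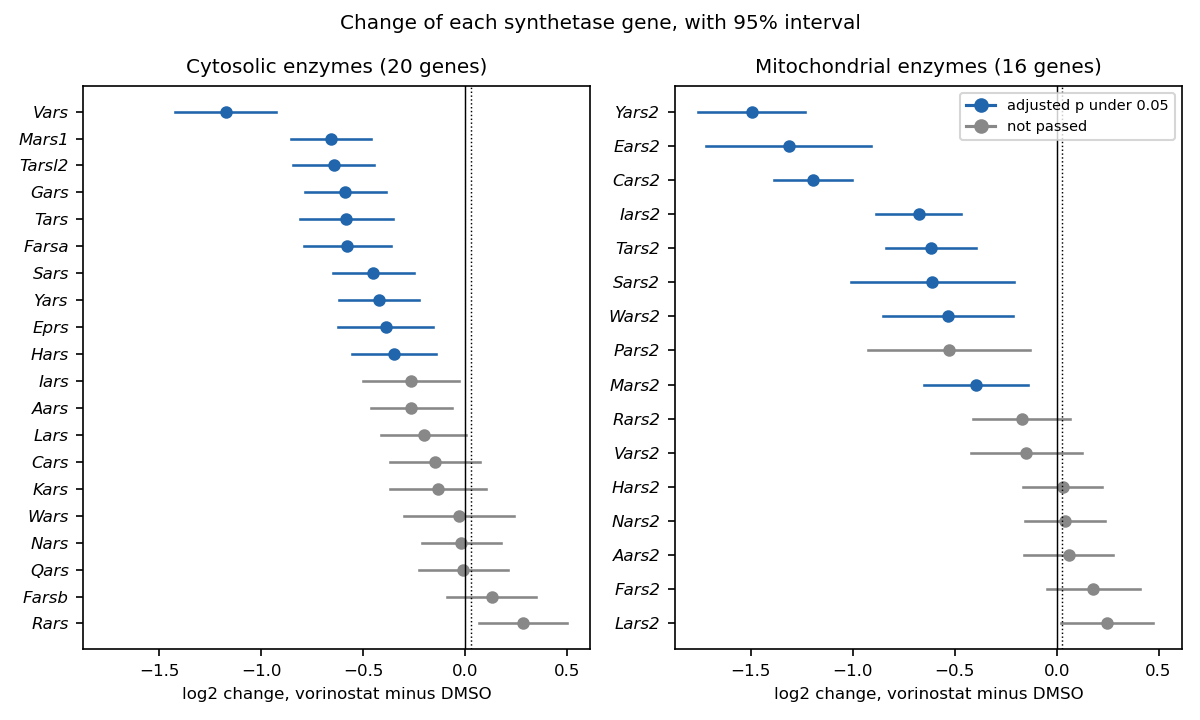
Log2 change (vorinostat minus DMSO, horizontal axis) of each cytosolic gene (left) and mitochondrial gene (right), ordered by change, with points for the estimate and lines for the 95% interval from limma. Blue marks the 10 cytosolic and 8 mitochondrial genes that passed the threshold, all of them lower; the dotted line is the median of all genes, 0.03. Zero depends on the scaling: with reference genes the cytosolic median turns to 0.0597.

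Among the cytosolic enzymes, 10 of 20 were lower and 0 were higher, with a median change of -0.31 and a range of -1.17 to 0.28. Vars, the valyl enzyme, read 9.03 and 8.90 on the DMSO arrays and 7.71 and 7.87 on the vorinostat arrays. It fell by 1.17 (SE 0.10, adjusted p = 0.000815 from limma), which is 2.26-fold. No other cytosolic member fell by as much as 2-fold, and the interval of Vars, -1.42 to -0.93, lies below the estimates of all the others. Mars1, the methionyl enzyme, which also charges the initiator transfer RNA, read 10.20 and 10.16 with DMSO and 9.53 and 9.51 with vorinostat. Its change was -0.66 (SE 0.08, adjusted p = 0.00238), and the gap between the groups was far wider than that between arrays of 1 group.

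Tarsl2, a threonyl-tRNA synthetase-like enzyme, read 6.96 and 6.92 with DMSO and 6.26 and 6.33 with vorinostat, a change of -0.65 (SE 0.08, adjusted p = 0.00273). Tars, the main cytosolic threonyl enzyme, read 10.52 and 10.37 with DMSO and 9.84 and 9.88 with vorinostat, a change of -0.58 (SE 0.09, adjusted p = 0.00621). The changes of these threonyl genes differed by only 0.06 (SE 0.06), and the array differences of the groups overlapped. Gars, the glycyl enzyme, whose single gene serves both cytosol and mitochondrion, read 10.97 and 10.99 with DMSO and 10.36 and 10.42 with vorinostat. Its change was -0.59 (SE 0.08, adjusted p = 0.00364).

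Smaller declines were called for Farsa, the alpha subunit of the phenylalanyl enzyme, for Sars (seryl), Yars (tyrosyl), Eprs (the fused glutamyl and prolyl enzyme) and Hars (histidyl). Their changes were -0.58, -0.45, -0.42, -0.39 and -0.35, with adjusted p between 0.00498 and 0.0266, and the groups overlapped in none of them. The other subunit of the phenylalanyl enzyme, Farsb, had a change of 0.13 (SE 0.09, adjusted p = 0.324). Farsb minus Farsa differed by 0.71 between the groups (SE 0.02), with no overlap of the arrays, although Farsa and Farsb encode partners in 1 enzyme. The 3 dimmer probe sets of Farsa had changes of 0.19, 0.39 and 0.10, none called. Their mean levels were 5.07, 4.84 and 2.69, the last near background, against 8.90 for the brightest. The decline of Farsa rests on its brightest probe set.

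Of the 10 cytosolic members that did not pass, Iars (isoleucyl), Aars (alanyl) and Lars (leucyl) had changes of -0.27, -0.27 and -0.20, with adjusted p of 0.0882, 0.055 and 0.126. Cars (cysteinyl), Kars (lysyl, which like Gars serves both compartments), Wars (tryptophanyl) and Nars (asparaginyl) lay between -0.15 and -0.02. Qars, the glutaminyl enzyme, had the smallest change, -0.01 (SE 0.09, adjusted p = 0.957, 95% interval -0.23 to 0.21). It read 9.52 and 9.41 with DMSO and 9.42 and 9.49 with vorinostat, so the groups overlapped. Rars, the arginyl enzyme, had the highest value of the family, 0.28 (SE 0.09, adjusted p = 0.0588). Its arrays read 10.56 and 10.43 with DMSO and 10.77 and 10.79 with vorinostat, which do not overlap. When limma's prior variance followed intensity, Rars was called higher and Iars, Aars and Lars were called lower (adjusted p = 0.0114, 0.00188 and 0.0153).

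**Figure D2:**
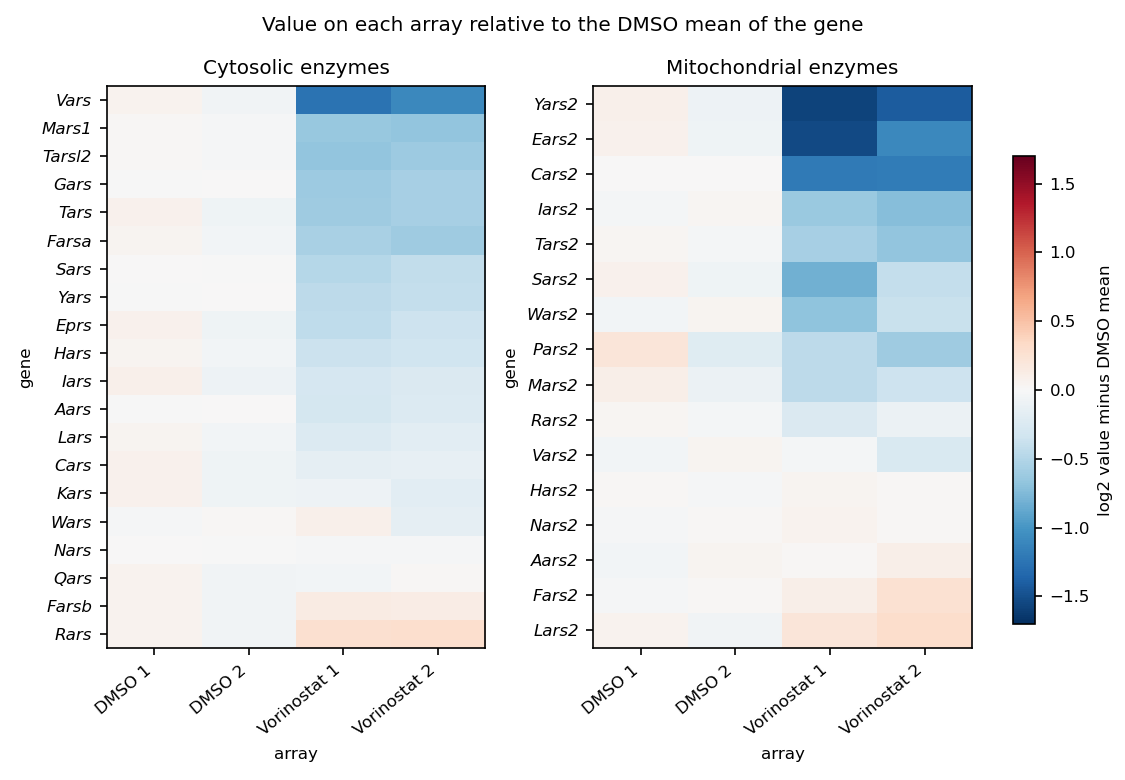
Log2 value of each gene (rows) on each of the 4 arrays (columns) minus the mean of its DMSO arrays, for cytosolic (left) and mitochondrial (right) genes ordered by change. Blue is below and red above the DMSO mean; Yars2, Ears2, Cars2 and Vars are the darkest rows, and both vorinostat arrays carry the shift in each of them.

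Among the mitochondrial enzymes, 8 of 16 were lower and 0 were higher, with a median change of -0.46 and a range of -1.50 to 0.25. Yars2, the mitochondrial tyrosyl enzyme, had the deepest decline of the family. It read 7.83 and 7.67 with DMSO and 6.17 and 6.33 with vorinostat, a change of -1.50 (SE 0.10, adjusted p = 0.000489 from limma), or 2.82-fold. A second Yars2 probe set gave -1.41. Cars2, the cysteinyl enzyme, read 7.21 on both DMSO arrays and 6.01 and 6.03 with vorinostat. Its change was -1.20 (SE 0.08, adjusted p = 0.000408), or 2.29-fold, and the arrays of each group lay almost on top of each other. Its other probe sets gave -1.24 and -0.27, and the last was not called (adjusted p = 0.0573).

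Ears2 charges mitochondrial transfer RNA with glutamate. It read 6.31 and 6.15 with DMSO and 4.70 and 5.13 with vorinostat, a change of -1.31 (SE 0.16, adjusted p = 0.00269), or 2.49-fold. The vorinostat arrays of Ears2 were farther apart than those of Yars2 or Cars2. Ears2 was the only member whose probe sets differed by more than 1 log2 unit. Its dimmer ones gave -0.43 (adjusted p = 0.0327 from limma, near background), -0.18 and -0.12 (near background), and the last 2 were not called. Without the first DMSO array its adjusted p rose to 0.0599.

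Iars2, the isoleucyl enzyme, read 7.95 and 8.01 with DMSO and 7.34 and 7.26 with vorinostat, a change of -0.68 (SE 0.08, adjusted p = 0.0027). Tars2, the threonyl enzyme, read 8.23 and 8.16 with DMSO and 7.64 and 7.52 with vorinostat, a change of -0.62 (SE 0.09, adjusted p = 0.00449). Sars2 (seryl), Wars2 (tryptophanyl) and Mars2 (methionyl) were also called, at -0.61, -0.53 and -0.40, with adjusted p of 0.0359, 0.0268 and 0.0342. In Sars2 the vorinostat arrays stood apart, at 5.12 and 5.55, and both lay under the DMSO arrays at 6.02 and 5.87.

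Pars2, the prolyl enzyme, had the same change as Wars2, -0.53, but a wider error (SE 0.16, adjusted p = 0.0549), since its DMSO arrays read 6.21 and 5.80. Rars2 (arginyl) and Vars2 (valyl) had changes of -0.17 and -0.15. Hars2, the histidyl enzyme, had the smallest mitochondrial change, 0.03 (SE 0.08, adjusted p = 0.821, 95% interval -0.16 to 0.22), with DMSO arrays at 7.14 and 7.11 and vorinostat arrays at 7.17 and 7.15. Nars2 (asparaginyl), Aars2 (alanyl) and Fars2 (phenylalanyl) lay at 0.04, 0.06 and 0.18. Lars2, the leucyl enzyme, was highest at 0.25 (SE 0.09, adjusted p = 0.0954), with arrays at 7.38 and 7.26 with DMSO and 7.52 and 7.61 with vorinostat. When the prior variance followed intensity, Lars2 was called higher and Pars2 lower (adjusted p = 0.0257). Pars2 was also called lower under the replicate block, the level filter, median centring, the mean of a gene's probe sets and without the second DMSO array, with adjusted p between 0.0281 and 0.0443.

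Calls of single members changed when an array was left out, which leaves no replicate in its group. The share of all genes called under each omission is not given. The omission counts, here and below, therefore cannot be set against it. With each array left out in turn, 4 to 6 cytosolic and 3 to 7 mitochondrial members stayed lower. The mitochondrial count fell to 3 without the first DMSO array and to 5 without the first vorinostat array. The cytosolic count was 5, 6, 5 and 4 without the first DMSO, second DMSO, first vorinostat and second vorinostat array. Of the 18 called members, 7 passed under all 4 omissions, namely Vars, Mars1, Tarsl2, Gars, Yars2, Cars2 and Iars2.

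Counting every probe set rather than 1 for each gene, 27 of 73 were lower, 0 were higher and 46 were not called. Over all probe sets of the array 15.7% were lower and 16.5% were higher. Of the 41 cytosolic probe sets 13 were lower, and of the 32 mitochondrial probe sets 14 were. Several probe sets read 23 of the genes, and 0 genes had probe sets called in opposite directions. The 3 other probe sets of Qars had changes of 0.25, 0.27 and 0.30, none called, whereas its brightest gave -0.01. The probe set with 0.30 lay near background, at a mean level of 2.49.

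For 16 amino acids the array reads both a cytosolic and a mitochondrial enzyme, which makes 17 pairs when Eprs is set beside both Ears2 and Pars2 and each phenylalanyl subunit beside Fars2. A constant shift of a whole array cancels in the difference of the changes within a pair. Scaling to equal distributions can act differently at different levels, and the enzymes of a pair differ in level, so its effect need not cancel. The median of mitochondrial minus cytosolic change was -0.03, and the mitochondrial enzyme had the lower change in 9 pairs and the higher in 8. In 13 pairs the array differences of the groups did not overlap, 6 with the mitochondrial and 7 with the cytosolic enzyme as the one that changed more downward. That is 76.5% of the pairs. The 68.9% of single genes whose arrays do not overlap is a different measure, and the share among differences of other gene pairs is not given here. The differences within pairs were not tested and are given with their SE only. That SE rests on the 2 arrays of each group alone, can be too small and is not comparable with limma's SE of a gene. An exact permutation test of 2 against 2 arrays cannot go below p = 0.333.

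Read from the brightest probe sets, the mitochondrial enzyme fell further for tyrosine, cysteine and glutamate. The glutamate gap rests on the brightest Ears2 probe set. The dimmer ones changed by -0.43, -0.18 and -0.12, the first and last near background, against -0.39 for Eprs. Yars2 minus Yars changed by -1.07 (SE 0.11), Cars2 minus Cars by -1.05 (SE 0.07) and Ears2 minus Eprs by -0.92 (SE 0.18). Smaller gaps in this direction were seen for tryptophan (-0.50, SE 0.28), arginine (-0.46, SE 0.08) and isoleucine (-0.41, SE 0.13). For valine the order was the other way round, with Vars2 minus Vars at 1.03 (SE 0.22). Fars2 lay 0.76 above Farsa (SE 0.13), Lars2 0.45 above Lars (SE 0.03) and Hars2 0.38 above Hars (SE 0.04) in their changes. Aars2 lay 0.32 above Aars (SE 0.05) and Mars2 0.26 above Mars1 (SE 0.10). The Farsa gap rests on its brightest probe set, since the mean of the Farsa probe sets changed by 0.0254. Asparagine, at 0.06 (SE 0.03), was the narrowest of the gaps without overlap. Serine, proline, threonine and the Farsb pair of phenylalanine overlapped, with differences between -0.16 and 0.05.

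By the calls themselves, both enzymes of a pair were lower in 5 pairs (tyrosine, glutamate, serine, threonine and methionine), only the cytosolic one in 4, only the mitochondrial one in 3 and neither in 5. In 0 pairs were they called in opposite directions. With an array left out, both enzymes were lower in 0 to 1 pairs, only the cytosolic one in 2 to 3, only the mitochondrial one in 3 to 7 and neither in 8 to 11. Both were lower in 1 pair without the second DMSO array and in 0 under each other omission. Hars and Hars2, which are neighbours in the genome, were split by the call, with Hars lower at -0.35 and Hars2 at 0.03.

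**Figure D3:**
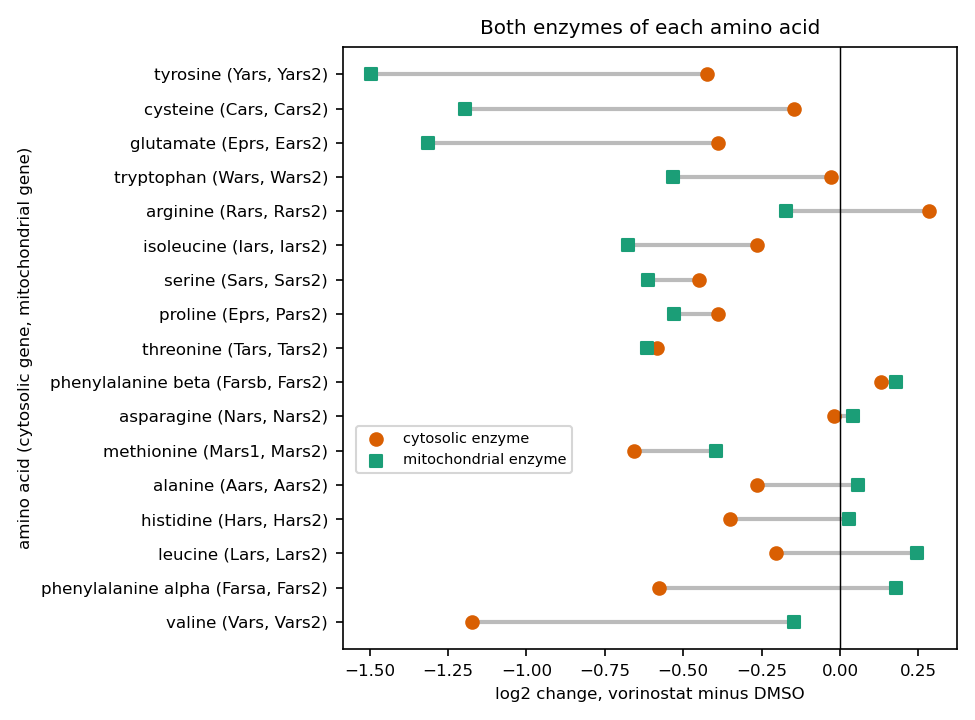
Log2 change (vorinostat minus DMSO, horizontal axis) of the cytosolic enzyme (orange circle) and the mitochondrial enzyme (green square) of each amino acid, joined by a grey line and ordered by their difference. The mitochondrial enzyme lies far to the left for tyrosine, cysteine and glutamate, and the cytosolic one for valine, where Vars2 minus Vars was 1.03. Each gene is read from its brightest probe set, and the glutamate gap rests on that probe set of Ears2.

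Synthetases fall into class I and class II by the fold of their catalytic domain. Among genes above the median probe set level 28.2% were lower. In the mitochondrial set, 6 of 9 class I members and 2 of 7 class II members were lower, with medians of -0.53 and 0.03. In the cytosolic set, 4 of 10 class I and 6 of 10 class II members were lower, with medians of -0.23 and -0.40. The mitochondrial members at least 2-fold lower, Yars2, Ears2 and Cars2, are all class I. Without the first DMSO array the mitochondrial counts were 3 and 0, and over the 4 omissions they ran from 3 to 5 in class I and from 0 to 2 in class II. The cytosolic counts fell to 2 in class I under each omission and to between 2 and 4 in class II, the lowest without the second vorinostat array. The difference between classes was not tested.

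In animal cells several cytosolic synthetases sit together in the multisynthetase complex, held by the scaffold proteins Aimp1, Aimp2 and Eef1e1. Of 7 complex enzymes 2 (Mars1 and Eprs) were lower, a share close to the 28.2% among genes above the median probe set level. The median of the complex was -0.20. Of the 13 cytosolic members outside the complex 8 were lower, with a median of -0.42. With an array left out these counts were 1 in the complex, under each omission, and 3 to 5 outside it, the lowest without the second vorinostat array. The scaffolds, named here after their values were seen, did not share a change. Eef1e1, which binds Mars1 in the complex, read 10.53 and 10.49 with DMSO and 9.36 and 9.42 with vorinostat, a change of -1.12 (SE 0.08, adjusted p = 0.000504 from limma). Aimp2 fell by 0.63 (SE 0.08, adjusted p = 0.00316), and Aimp1 had a change of 0.08 (adjusted p = 0.52).

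Of 16 partners of the synthetases and genes for handling transfer RNA, 8 were lower and 2 higher, with a median of -0.35. Among genes above the median probe set level 28.2% were lower and 28.7% higher. Xpot, which exports transfer RNA from the nucleus, read 10.15 and 10.14 with DMSO and 8.73 and 8.74 with vorinostat, a change of -1.41 (SE 0.08, adjusted p = 0.000287 from limma). Aarsd1, a stand-alone editing protein that acts on mischarged transfer RNA, fell by 1.296 (SE 0.09, adjusted p = 0.000458). Higher were Prorsd1, related to an editing domain of prolyl enzymes, at 0.83 (SE 0.10, adjusted p = 0.00278), and Sepsecs, which makes selenocysteine on its transfer RNA, at 0.58 (SE 0.10, adjusted p = 0.0107). Sepsecs lost its call with each of the 4 arrays left out.

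The list holds no separate mitochondrial glutaminyl enzyme: Ears2 charges the glutamine transfer RNA with glutamate, and an amidotransferase of the subunits Qrsl1, Gatb and Gatc then converts it. Qrsl1 read 8.25 and 8.07 with DMSO and 6.73 and 6.89 with vorinostat, a change of -1.35 (SE 0.11, adjusted p = 0.000679 from limma), close to the -1.31 of Ears2. Gatc fell by 0.81 (SE 0.09, adjusted p = 0.00231) and Gatb had a change of 0.23 (adjusted p = 0.0877); these subunits were chosen after their values were seen. Among genes above the median probe set level 28.2% were lower and 28.7% higher. Of 20 genes for mitochondrial charging, translation and transcription, 8 were lower and 4 higher, with a median of -0.23. Among them Tsfm, an elongation factor, fell by 0.84 (SE 0.09, adjusted p = 0.0018). Its partner Tufm, which carries charged transfer RNA to the mitochondrial ribosome, rose by 0.51 (SE 0.08, adjusted p = 0.0067), and Trmu, which modifies mitochondrial transfer RNA, rose by 0.65 (SE 0.10, adjusted p = 0.0071). With an array left out, this list held 4 to 5 lower and 0 to 2 higher genes. Tufm and Trmu lost their calls without the second DMSO or the first vorinostat array, and Trmu also without the first DMSO array and with the mean of its probe sets, which was 0.29 (adjusted p = 0.0851).

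**Figure D4:**
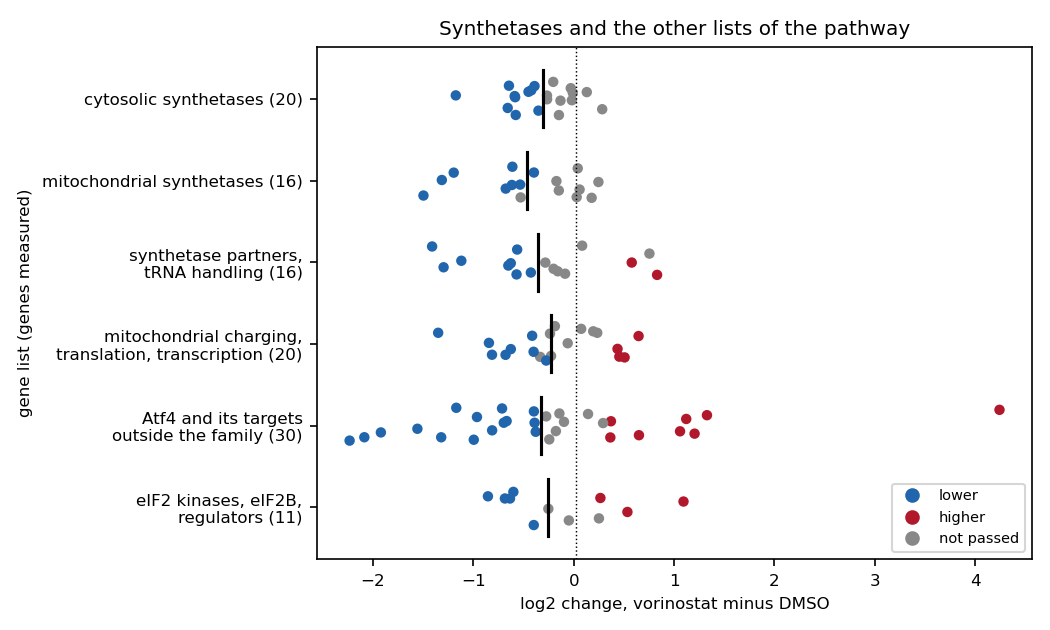
Log2 change (vorinostat minus DMSO, horizontal axis) of each gene in the synthetase sets and the other lists (rows, with the number of genes measured), coloured by call, with a black bar at each list's median and a dotted line at the median of all genes. The synthetase rows hold blue and grey points only, whereas the other lists hold genes called in both directions. Zero depends on the scaling: with reference genes the cytosolic median turns to 0.0597.

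Atf4 itself read 11.54 and 11.47 with DMSO and 10.47 and 10.54 with vorinostat, a change of -0.996 (SE 0.08, adjusted p = 0.000786 from limma). Of the 12 cytosolic members on the list of ATF4 targets, 6 were lower, with a median of -0.33, and of the 8 not on it 4 were, with a median of -0.24. On the list 3 were lower without the second DMSO array and 2 under each other omission; off the list 2 were lower without the second vorinostat array and 3 under each other omission. Of 30 genes outside the family, Atf4 itself and its listed targets, 15 were lower and 8 higher, with a median of -0.33. For comparison, 28.2% of genes above the median probe set level were lower and 28.7% higher. Shmt2, a mitochondrial enzyme of serine and one-carbon metabolism, fell by 2.23 (SE 0.08, adjusted p = 0.000173) and Atf5, a related transcription factor, by 2.09 (SE 0.08, adjusted p = 0.00018). In the other direction Atf3, a stress-induced transcription factor, rose by 4.24 (SE 0.14, adjusted p = 0.00016) and Ddit4, an inhibitor of mTORC1, by 1.33 (SE 0.09, adjusted p = 0.000529). With an array left out, 4 to 5 genes of this list were higher.

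Ddit3 (CHOP), a stress-induced transcription factor, rose by 0.65 (SE 0.13, adjusted p = 0.0154), and Asns, which makes asparagine, fell by 0.39 (SE 0.10, adjusted p = 0.0383 from limma). Asns lost its call with each of the 4 arrays left out, and Ddit3 with 3 of them, the second vorinostat array being the exception. Trib3, a pseudokinase induced by ATF4, had a change of -0.27 (SE 0.09, adjusted p = 0.0805). The mean of the Trib3 probe sets gave -0.49 (adjusted p = 0.00558), and the call was also lower with median centring and with the level filter, whereas scaling to the reference genes gave 0.0942. Upstream of ATF4 stand the kinases of eIF2, among them GCN2, which senses uncharged transfer RNA, and the exchange factor eIF2B. Of 11 genes of this step 5 were lower and 3 higher, with a median of -0.25. Beside them, 28.2% of genes above the median probe set level were lower and 28.7% higher. The endoplasmic reticulum kinase Eif2ak3 (PERK) rose by 1.09 (SE 0.08, adjusted p = 0.000561) and Eif2ak1 by 0.54 (SE 0.10, adjusted p = 0.0102). Eif2ak4, the gene of GCN2, had a change of -0.05 (SE 0.11, adjusted p = 0.799 from limma), and its groups overlapped. Impact, which inhibits GCN2, fell by 0.85 (SE 0.10, adjusted p = 0.00251) and Eif2b3, a subunit of eIF2B, by 0.69 (SE 0.08, adjusted p = 0.00235). With an array left out, Eif2ak1 lost its call in 3 of the 4 omissions, and 1 to 2 genes of this list were higher.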

How the data were processed

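Per the labels' protocols, RNA from the cultured cells was reverse-transcribed and hybridised to 4 arrays. The values used are the authors' deposited log2 values. They were made with RMA and the Transcriptome Analysis Console, versions unstated, per the submitters' processing notes. RMA equalises the distributions of the arrays, so a shift shared by all transcripts cannot be seen. Of 45101 probe sets, 64 controls were left out and 45037 tested: 34945 had 1 symbol in the platform annotation, 932 several and 9160 none here. Names were checked in a RefSeq table (GRCm38.p6), and no coordinates are printed because the sources used here do not give the annotation's build.

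Groups were compared with limma 3.58.1 in R 4.3.3 (two-sided, lmFit followed by eBayes; the prior had 3.26 degrees of freedom). Adjustment by Benjamini-Hochberg covered the 45037 probe sets, at a threshold of 0.05 and without a low-level filter. The script was tested on simulated data. Each gene is read from its brightest probe set (highest 4-array mean). Near background means no more than 1 log2 unit above the brightest control of a transcript that was not spiked in. Tarsl2, Gars and Kars are counted as cytosolic.

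The rule for named genes took, with full statistics, the 5 largest falls and rises past the threshold and the smallest change in each compartment, members whose probe sets differ by over 1 log2 unit or are called in opposite directions, pairs called in opposite directions, the 2 largest rises and falls of each other list, and Atf4, Ddit3, Asns and Trib3. Members and lists were chosen with earlier results of these data known. Alternatives changed the scaling, the probe set rule, the level filter and the variance prior, added the replicate number as a block, and left out each array. Only 4 arrays limit the precision.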

Additional observations from a re-analysis of the deposited data

How the results depend on the processing

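Both sets stayed lower on balance except under scaling to 7 reference genes, where 3 cytosolic members were lower, 5 higher and the median was 0.0597, and 5 mitochondrial members were lower, 5 higher and the median was -0.0943. That scaling left 5 lower and 5 higher partners, 4 lower and 8 higher genes of mitochondrial translation and 3 lower and 5 higher genes of the eIF2 step, and it turned Hars to 0.0171, Iars to 0.10, Aars to 0.10, Lars to 0.16, Cars to 0.22, Kars to 0.24, Wars to 0.34, Nars to 0.35, Qars to 0.36, Rars2 to 0.20, Vars2 to 0.22 and Trib3 to 0.0942. Scaling without Gusb and Polr2a, added after seeing the data, gave 1 higher member in each compartment, a cytosolic median of -0.23, Wars 0.0516, Nars 0.0628 and Qars 0.0718. An intensity trend, or only probe sets above the median level, each gave 1 higher cytosolic (Rars) and 1 higher mitochondrial member (Lars2), beside 13 lower cytosolic and 9 lower mitochondrial members. The mean of a gene's probe sets gave 1 higher cytosolic member, medians of -0.25 and -0.35 for the cytosolic and mitochondrial sets, Farsa 0.0254, Wars 0.00534 and Qars 0.20. Without shared or variant probe sets the cytosolic median was -0.20, Farsa 0.19, Wars 0.0589 and Qars 0.30, the last from a probe set near background. Median centring gave a cytosolic median of -0.37, Hars2 -0.0304, Nars2 -0.02005 and Aars2 -0.00142. With each array left out, 4 to 6 cytosolic and 3 to 7 mitochondrial members were lower, with medians of -0.37 to -0.29 and -0.49 to -0.31. Higher genes then numbered 1 among the partners, 0 to 2 in mitochondrial translation, where 4 to 5 were lower, 4 to 5 with ATF4 and 1 to 2 in the eIF2 step. Wars ran from -0.15 to 0.0898 and Qars from -0.0656 to 0.0476. The cause of these moves was not tested, though a left-out array leaves fewer samples. The shares of all genes called under the alternatives are not given, so the counts cannot be set against them. The replicate block gave 8 lower cytosolic and 7 lower mitochondrial members. The labels state no block behind the replicate number. The deviations of same-numbered arrays correlated at -0.06, and whether these arrays share a batch was not tested. Across all alternatives that gave a value, 6 of the 18 called members passed: Cars2, Iars2, Mars1, Tarsl2, Vars and Yars2. All 36 members lay above the near-background level on every array. The dimmest, Mars2, read 4.25 and 4.34 with vorinostat, near the medians of those arrays, 4.26 and 4.28. The effect of low signal on its change was not tested.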
